A study of Mus musculus with 29 samples.

Results

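The immunoglobulin isotype genes are 9 genes of 30818 gene symbols in the deposited expression table, and they were chosen by name. They are 7 heavy chain constant region genes (Ighm, Ighd, Ighg1, Ighg2b, Ighg2c, Ighg3 and Igha), the kappa light chain constant gene Igkc, and Jchain, which encodes the joining chain of polymeric antibodies. All 9 were found by symbol and all 9 passed the filter on low values, a normalized count of 10 or more in at least 4 libraries, with 19387 genes in all.

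The 29 libraries were made from mammary fat pad of wild-type C57BL/6N mice, taken from gland 9, opposite a tumor grown from E0771 mouse mammary cancer cells injected into gland 4 in week 25. Control mice (5 libraries) ate the diet D12450J throughout. The mice of the other 5 groups were first made obese on D12492, a diet with 60% fat. Obese mice (5 libraries) stayed on it, LFD mice (5) changed to an unrestricted low-fat diet, LFCR mice (5) to a low-fat diet with 30% fewer calories, MCR mice (4) to a Mediterranean-style diet with 30% fewer calories, and ICR mice (5) to intermittent calorie restriction. All groups carried the tumor, so no group shows the gland of a mouse without one. The sample titles begin with the word tumor and the labels also give E0771 as a cell line, while the tissue field and the protocol name the opposite, normal gland. The labels do not say whether libraries of a group came from separate mice, so the p-values below measure the spread between these libraries, which may be technical in part.

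B cells make antibodies from a rearranged variable region joined to a constant region. Naive B cells carry Ighm and Ighd products on the surface, spliced from one long transcript. Class switching replaces the first constant genes with a downstream one, and plasma cells then secrete IgM, IgG or IgA in large amounts. In the mammary gland IgA-secreting plasma cells are best known from lactation, and the gland also holds lymph nodes rich in naive B cells. C57BL/6 mice have Ighg2c in the place that Ighg2a takes in several other strains.

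The ends of 4 heavy chain genes show how the polymeric isotypes differ from IgG. The last 60 coding bases of the secreted forms are printed 5′ to 3′ on the coding strand, with the third codon from the end, counting the stop codon, in capitals. They were read from GENCODE vM21 transcripts on GRCm38 (mm10), all on the minus strand. In Ighm and Igha this codon is the cysteine of the tailpiece, known to link these chains to one another and to the joining chain, and Ighg2b and Ighg2c have another codon there.
Ighm (Ighm-201, chr12:113420867-113420926): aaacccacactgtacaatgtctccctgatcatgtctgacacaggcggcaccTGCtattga
Igha (Igha-201, chr12:113258768-113258827): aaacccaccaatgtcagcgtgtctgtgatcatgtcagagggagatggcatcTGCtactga
Ighg2b (Ighg2b-201, chr12:113306389-113306448): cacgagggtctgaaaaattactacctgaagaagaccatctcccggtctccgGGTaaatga
Ighg2c (Ighg2c-202, chr12:113287389-113287448): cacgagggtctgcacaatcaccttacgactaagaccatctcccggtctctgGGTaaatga
Over their whole coding sequence, the secreted forms of Ighg2b and Ighg2c had 86.4% identical aligned bases, and Ighm and Igha had 67.3%. Reads of 76 bases can still tell the genes apart: 0.653% of the windows of that length in Ighg2b recur exactly in Ighg2c or Ighg3, 0.32% of those in Ighg2c and 0.533% of those in Ighg3 recur in Ighg2b, and the other 6 genes share none with another member or with Ighe.

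The heavy chain genes lie on the minus strand of chromosome 12 in the order Ighm (chr12:113418558-113422730), Ighd (chr12:113406604-113416324), Ighg3 (chr12:113356224-113361232), Ighg1 (chr12:113325240-113330523), Ighg2b (chr12:113302965-113307933), Ighg2c (chr12:113285325-113288932) and Igha (chr12:113254830-113260236). Igkc lies at chr6:70726435-70726966 on the plus strand and Jchain at chr5:88519809-88527891 on the minus strand. Each count covers the exons of the whole gene, so secreted and membrane forms are not separated.

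Libraries held between 16403903 and 49026986 recovered reads (median 37270234). The 5 libraries of lane 4, the lane number being the one in the column headers, held 16403903 to 18212783, and no other library held under 29008340. The tissue was checked against defining markers: adipocyte genes summed to between 133650 and 858280 normalized counts, and luminal epithelial genes to between 10349 and 61306, so both were present in every library. Glycam1, which encodes a ligand of high endothelial venules in lymph nodes and is also a milk protein gene, separated 8 libraries with a log2 value under 9 from the other 21. The highest value among the 8 was 6.93 (LFCR 1) and the lowest among the 21 was 11.56 (ICR 2). No Control or ICR library was among the 8. MCR contributed 3 of its 4 libraries (MCR 1, MCR 3, MCR 4), LFCR 2 (LFCR 1, LFCR 3), Obese 2 (Obese 1, Obese 5) and LFD 1 (LFD 1). A mean of 13 B cell genes under 9 picks out the same 8. Lane 6 held 4 of the 8 among its 5 libraries, lane 3 held 2, lanes 1 and 2 held 1 each, and lanes 4 and 5 none. The 2 sets were made from the data, are not the study's groups, and are described with no test.

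In the 8 libraries with low Glycam1, 8 of the 9 immunoglobulin genes were lower than in any of the other 21. All values in these paragraphs are normalized counts, the reads divided by the authors' size factor. Of all 19387 genes, 6.28% were separated in this way with the higher values in the 21, and 0.5% with the lower values there. The members' median difference between set medians was 5.19 on the log2 scale, beside -0.02 over all genes. Glycam1 and the B cell list had been seen to split the libraries before these genes were chosen, so the separation describes the sets. In bulk tissue, fewer cells of a type and less RNA per cell cannot be told apart.

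Ighd, the gene of the second surface isotype of naive B cells, ran from 86.4 to 214 (median 139) in the 8 libraries and from 3454 to 19191 (median 10162) in the 21. The medians differed 73.0-fold, with a wide gap between the sets. Ighm, the first isotype a B cell makes, ran from 1622 to 7663 (median 4265) in the 8 and from 10972 to 164860 (median 28897) in the 21. Its medians differed 6.78-fold. The lowest of the 21 was LFCR 2 and the highest of the 8 was MCR 1, so the gap between the sets was much narrower for Ighm than for Ighd.

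The IgG genes mark B cells and plasma cells that have switched class. Ighg1 ran from 0 to 16.2 in the 8 and from 172 to 4271 in the 21, and LFD 1 had no read, which allows up to 3 reads or 2.92 normalized counts. Ighg3 ran from 0.706 to 18.6 in the 8 and from 251 to 5769 in the 21. Both genes were near the limit of detection in the 8 libraries, where Ighg3 had between 1 and 18 reads, so no fold is given. Ighg2b ran from 2.92 to 233 (median 19.6) in the 8 and from 525 to 44282 (median 3597) in the 21. Ighg2c ran from 5.84 to 233 (median 21.5) in the 8 and from 481 to 63698 (median 4058) in the 21. LFCR 1 had the highest value of the 8 for both genes.

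Igkc, which serves every kappa-bearing antibody whatever its heavy chain, ran from 108 to 2071 (median 353) in the 8 libraries and from 5465 to 149230 (median 20040) in the 21. Jchain, expressed mainly by antibody-secreting cells, ran from 17.6 to 460 (median 105) in the 8 and from 573 to 23462 (median 2848) in the 21. Igha was the only member whose sets overlapped. It ran from 4.94 to 282 (median 29.2) in the 8 and from 71.3 to 2529 (median 415) in the 21, and 7 of the 21 were at or below the highest of the 8, MCR 3.

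**Figure D1:**
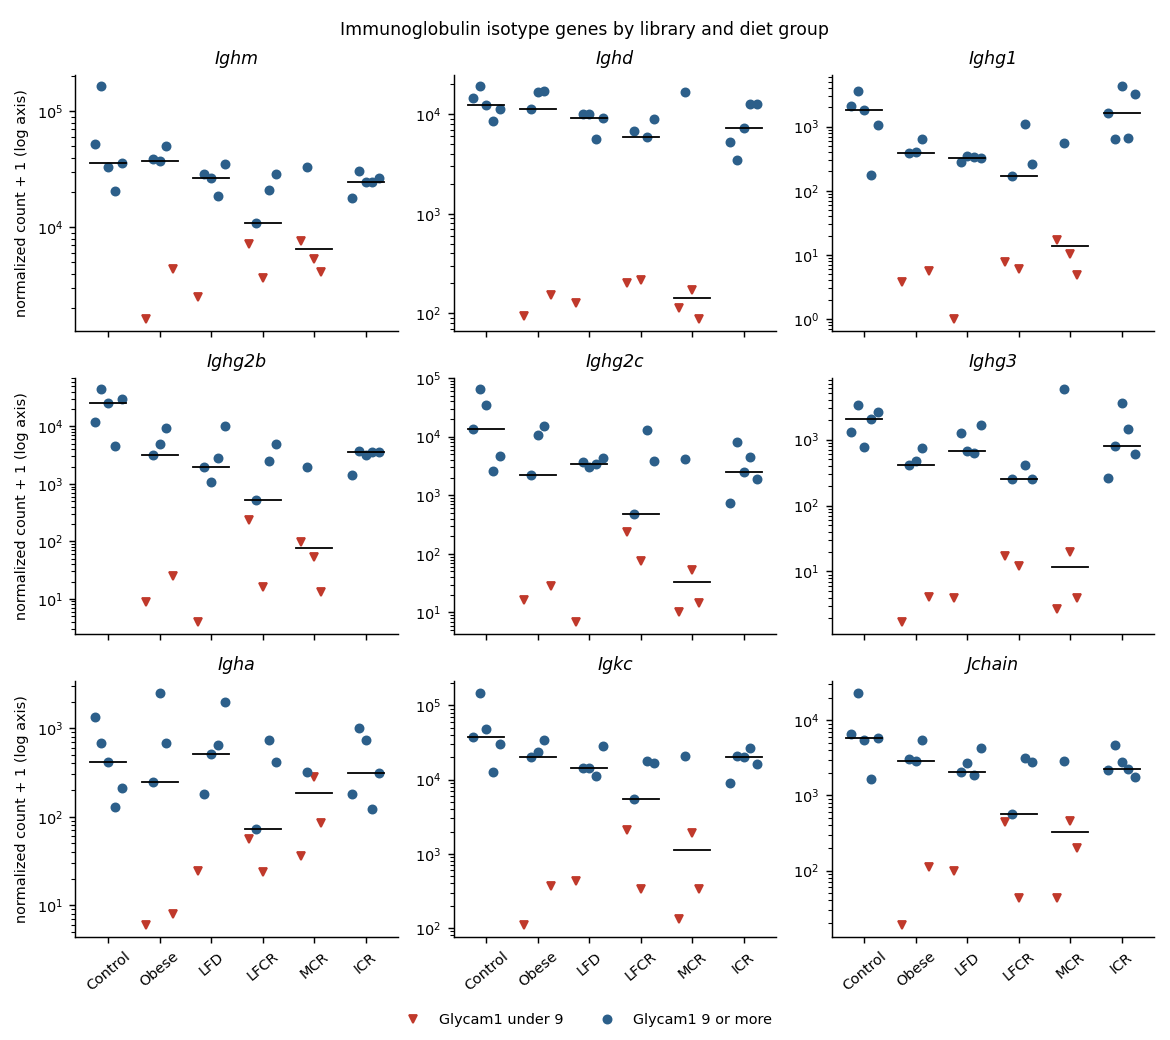
Normalized count plus 1 on a log axis for each of the 9 genes in each of the 29 libraries, by diet group. Red triangles are the 8 libraries with Glycam1 under 9, blue circles the other 21, and black lines the group medians. The triangles lie below every circle in 8 of 9 panels, and in the Igha panel 7 circles lie at or below the highest triangle.

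Markers of other cell types moved with these differences. The 13 B cell genes summed to 405 to 939 in the 8 libraries and to 14450 to 90141 in the 21, with no overlap for 13 of 13 genes. The 10 T cell genes summed to 341 to 737 against 5536 to 28131, with no overlap for 10 of 10, and the 9 genes of lymph node stroma and high endothelial venules to 351 to 1497 against 13526 to 69436, with no overlap for 7 of 9. The last list includes Glycam1, which defines the sets, and Cr2, which the B cell list also holds. Its other 7 genes summed to 274 to 1395 against 8143 to 40441, with no overlap for 5 of 7. No gene of the B cell or T cell list was at 0 in the 8, and Cd3e, a chain of the T cell receptor complex, had 34.6 or more. Luminal epithelial genes summed to 13170 to 61306 against 10349 to 47924, and macrophage genes to 9097 to 39894 against 16719 to 57843, overlapping in both cases. The part of these cells in the immunoglobulin differences was not tested.

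Fewer genes of the plasma cell list than of the B cell list were separated between the sets. Of its 13 genes, 3 did not overlap between the sets: Mzb1, a chaperone of antibody assembly, with 2.68 to 13.5 against 140 to 1433, Pou2af1, a B cell coactivator, with 18.8 to 62.2 against 1156 to 6849, and Sec11c, a signal peptidase subunit, with 816 to 1104 against 1124 to 3216. Xbp1, the secretory regulator and the most abundant gene of the list, had medians of 6089 and 5920. Sdc1, which marks plasma cells but also epithelium, had medians of 1413 in the 8 and 1183 in the 21. Tnfrsf17, a receptor largely restricted to plasma cells and singled out after its values were seen, was low everywhere, at 6.95 to 26.9 against 6.48 to 53.1. Irf4, Derl3 and Prdm1 overlapped too, with medians of 646, 15.7 and 164 in the 8 and 2007, 56.7 and 237 in the 21. Xbp1 and Sdc1 were the only genes of the list with the lower median in the 21. Whether the sets differed in plasma cell content was not tested.

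Ighd followed the B cell gene Cd79a, which encodes a chain of the B cell receptor, closely in the 21 libraries and less closely in the 8. Over the 21 libraries the ratio of Ighd to Cd79a counts was 2.07 ± 0.19 (SD, n = 21), between 1.75 and 2.63. Across these libraries the log2 values had Pearson's r = 0.980 and Spearman's rho = 0.969, and r = 0.967 without the 2 libraries farthest from the median of Ighd. Among the 8 the ratio was 1.76 to 4.64 (median 2.71), on Cd79a counts of 27.3 to 112. There the log2 values had r = 0.784 and rho = 0.810, and r = 0.576 without the 2 farthest libraries. The correlations here and below are descriptions over libraries that share a normalization.

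Ighm did not follow Cd79a into the 8 libraries. Its ratio to Cd79a was 3.45 to 19.0 (median 5.93) in the 21 and 31.1 to 204 (median 82.1) in the 8, with no overlap. The highest ratios were those of MCR 1 at 204, MCR 4 at 140 and LFCR 1 at 112. The ratio of Ighm to Igkc was 0.690 to 2.02 (median 1.56) in the 21 and 2.75 to 57.6 (median 11.4) in the 8, again with no overlap, and MCR 1 was highest. Igkc over Cd79a overlapped, at 1.72 to 15.4 in the 21 and 2.07 to 32.2 in the 8. Among the 21, Control 2 and ICR 2 stood highest for both Ighm over Cd79a (17.1 and 19.0) and Igkc over Cd79a (15.4 and 12.7).

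**Figure D2:**
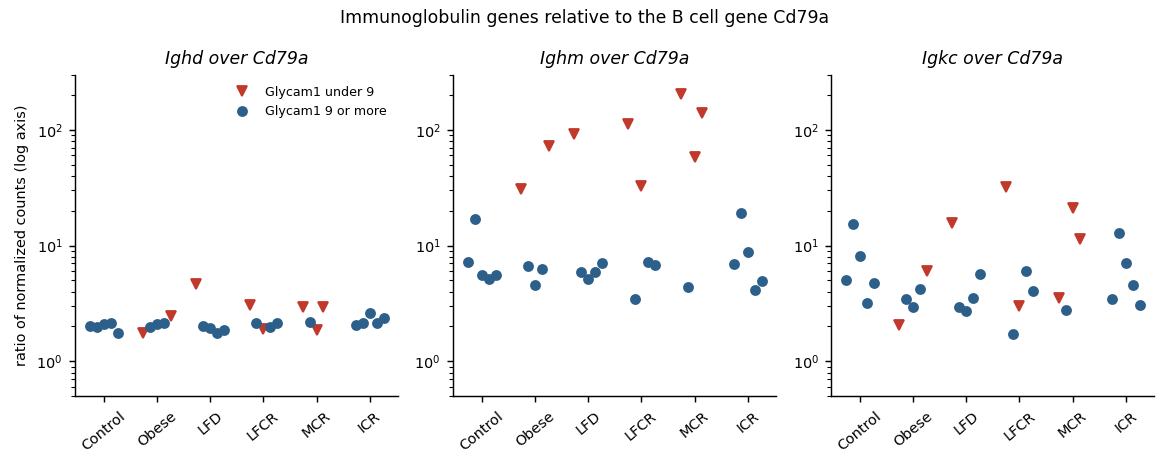
Ratio of the normalized count of Ighd, Ighm and Igkc to that of the B cell gene Cd79a in each library, on log axes, by diet group. Red triangles are the 8 libraries with Glycam1 under 9 and blue circles the other 21. Ighd stays between 1.75 and 4.64 in all libraries, while Ighm over Cd79a is 31.1 or more in the 8 and 19.0 or less in the 21.

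Igkc and Jchain varied together in both sets. Their log2 values had r = 0.932 (rho = 0.883) over the 21 libraries and r = 0.925 (rho = 0.857) over the 8, and r was 0.817 and 0.754 without the 2 farthest libraries of each set. Igha followed neither Ighd (r = 0.108, rho = 0.145, n = 21) nor Cd79a (r = 0.122, rho = 0.123, n = 21). Without the 2 farthest libraries these values were -0.110 and -0.094. Outside the immunoglobulin genes, those most like Ighm over all 29 libraries were Havcr1, Ces2e and Vav2, with r = 0.889, 0.797 and 0.865 within the 21. For Jchain they were Il22ra2, Havcr1 and Mei4, with r = 0.660, 0.773 and 0.828 within the 21. For Igha they were Dnase1, Gm29439 and Trav3-3, with r = 0.557, 0.406 and 0.476 within the 21.

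Levels can be compared between genes only per length, and counts were therefore divided by the exon length of each gene in kb. Per kb, Igkc was the highest of the 9 genes in 21 of the 21 libraries, with a median of 37669. Ighm was second in 20 of them (median 15322), and Ighg2c was second in Control 3. Among the 8 libraries Ighm was highest in 6, with a median per kb of 2261, and Igkc in 2, with a median of 663. In the 21, Ighd had a median per kb of 5348, Ighg2c 3060, Ighg2b 1343, Jchain 1132, Ighg3 304, Ighg1 248 and Igha 156.

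Within a library, the share of each isotype among the heavy chain counts does not depend on the library's scaling. In the 21 libraries Ighm made up 30.4% to 68.3% of these counts (median 54.3%), and in the 8 it made up 90.1% to 96.6% (median 93.5%). The lowest share was that of Control 3 (30.4%) and the highest among the 21 that of Obese 2 (68.3%). Ighd made up 6.41% to 35.3% in the 21 and 1.40% to 5.35% in the 8. The 95% Wilson intervals of single libraries reached at most 0.727 percentage points to either side in the 21 and 1.01 in the 8. These intervals cover counting error only. The Ighm counts of the 8 came with few counts of the heavy chain variable region genes (Ighv). In the 8, the medians were 4265 for Ighm and 99.2 for the Ighv sum, and in the 21 they were 28897 and 4528. MCR 1 had 8988 Ighm reads beside 35 Ighv reads, and Control 1 had 76706 beside 14975. The Ighm share is thus one of constant region counts, and the source of the Ighm reads in the 8 was not tested.

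Among the IgG genes, Ighg2c was the most abundant by count in 11 of the 21 libraries, Ighg2b in 7, Ighg1 in 2 (ICR 1 and ICR 3) and Ighg3 in 1 (MCR 2). These are counts, not levels per kb, and the annotated exons of Ighg2c are shorter than those of the other IgG genes. Several leads change per kb. There Ighg2c was above Ighg3 in MCR 2 (3060 against 2297), above Ighg1 in ICR 3 (1840 against 1648) and above Ighg2b in Control 4 (1918 against 1675). Per kb, Ighg2b stayed highest of the IgG genes in Control 5 and LFD 5, and Ighg1 in ICR 1. The balance of Ighg2c and Ighg2b differed widely between libraries of the same group. The ratio of Ighg2c to Ighg2b counts was 1.11, 1.44, 1.37, 0.567 and 0.152 in Control 1 to 5. Over the 21 it ran from 0.152, in Control 5, to 5.19, in LFCR 4. MCR 2 had 9.22% Ighg3, while ICR 3 had 7.84% and Control 4 had 5.36%.

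**Figure D3:**
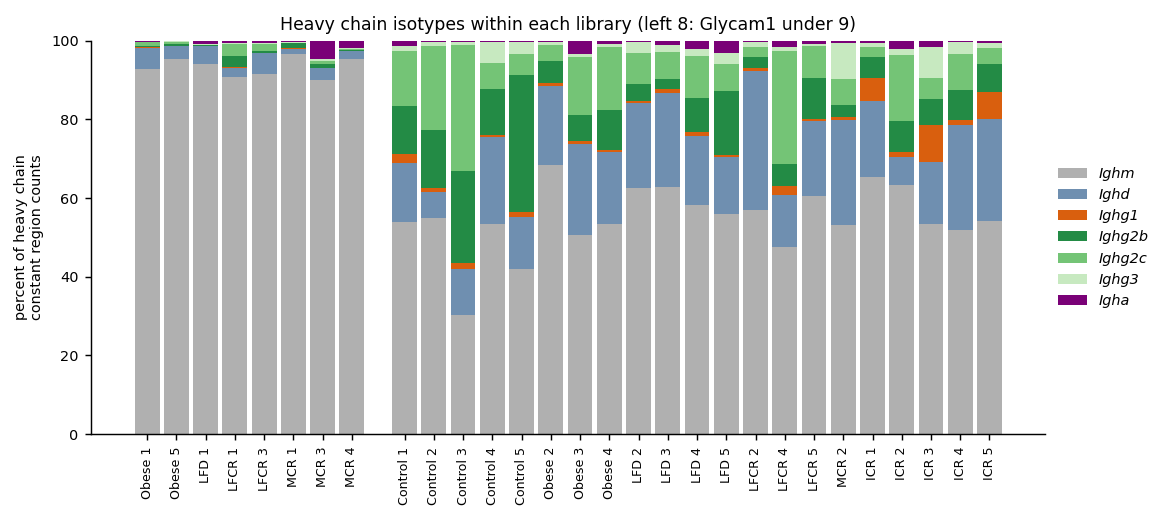
Share of each of the 7 heavy chain genes in the heavy chain constant region counts of each library, in percent. The 8 libraries on the left have Glycam1 under 9 and Ighm shares of 90.1% or more, and the other 21 have Ighm shares of 68.3% or less.

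Igha had similar medians in both sets as a share of all heavy chain counts, 0.632% in the 8 and 0.646% in the 21. Among the switched isotypes, the IgG genes and Igha, it made up 10.1% to 72.1% (median 19.9%) of the reads in the 8 and 0.540% to 13.3% (median 4.20%) in the 21, so the sets overlapped. It was highest in MCR 4 with 111 of 154 reads (72.1%, 95% Wilson interval 64.5% to 78.6%), MCR 3 with 272 of 400 (68.0%, 63.3% to 72.4%) and LFD 1 with 24 of 36 (66.7%, 50.3% to 79.8%). The highest of the 21 was Obese 3. With Ighd in the total as well, Igha made up 3.23% to 48.1% in the 8 and 0.417% to 7.21% in the 21.

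Variable region genes give another view of the same libraries. Counts over the 129 Ighv genes summed to 26.1 to 440 in the 8 libraries, from 35 to 425 reads, and to 953 to 32997 in the 21. With so few reads, the shares of single V genes in the 8 had 95% Wilson intervals of up to 15.7 percentage points to either side. In the 21 libraries the heavy V genes with the highest mean shares were Ighv1-26 (4.39%) and Ighv5-9-1 (4.13%), and 16 different genes led in 1 library or another. In the 8 they were Ighv11-2 (13.3%) and Ighv1-81 (6.66%). The mean of Ighv1-81 rests on MCR 1, where it held 16 of 35 reads. The other 7 libraries had 0 to 2 reads of it, and the mean without MCR 1 was 1.08%.

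Ighv11-2 is known from B-1 cells, innate-like B cells of body cavities, where it is paired with the kappa gene Igkv14-126 in antibodies to phosphatidylcholine. It was the most abundant heavy V gene in LFCR 1 and MCR 3 and in none of the 21. In Obese 1 it held 4 of 37 reads (10.8%) and was tied with Ighv9-3. Its share was highest in LFCR 1, MCR 4 and MCR 3. In LFCR 1 it held 130 of 303 Ighv reads (42.9%, 95% Wilson interval 37.5% to 48.5%), in MCR 4 it held 39 of 153 (25.5%, 19.2% to 32.9%), and in MCR 3 it held 81 of 425 (19.1%, 15.6% to 23.1%). In the 21 libraries its share was 0.161% to 15.7%, highest in ICR 2. The shares of the 8 and the 21 overlap, and the other 5 of the 8 had 1 to 4 reads of the gene.

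Igkv14-126, looked up after its values were seen, had high shares of the Igkv reads in the same 3 libraries. They were 38.3% in LFCR 1 (of 525 reads, 34.2% to 42.5%), 26.2% in MCR 4 (48 of 183, 20.4% to 33.0%) and 13.8% in MCR 3 (112 of 809, 11.6% to 16.4%). In the 21 it ran from 0.198% to 12.0%, and ICR 2 was again highest. Across the 21 libraries the 2 shares had r = 0.878 and rho = 0.945, and r = 0.954 without the 2 libraries farthest from the median of Ighv11-2. Which heavy and light chains share a cell cannot be read from bulk RNA.

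**Figure D4:**
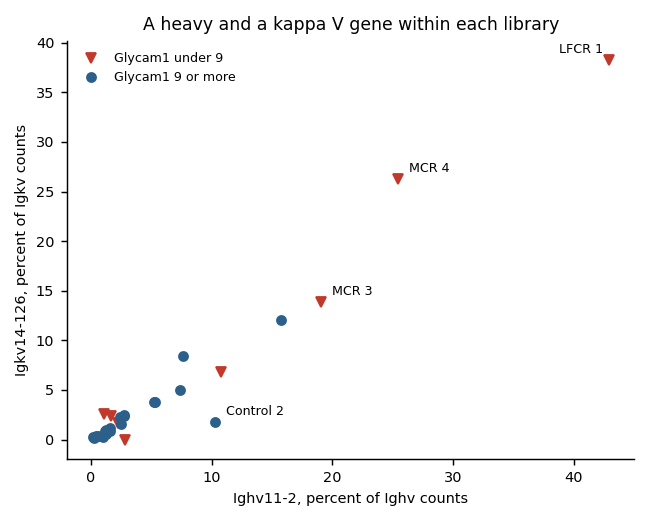
Share of Ighv11-2 among Ighv counts against the share of Igkv14-126 among Igkv counts, in percent, 1 point per library. Red triangles are the 8 libraries with Glycam1 under 9 and blue circles the other 21. LFCR 1, MCR 4 and MCR 3 are highest on the horizontal axis, from 19.1% to 42.9%, and Control 2 has 10.3% of the heavy and 1.79% of the kappa gene.

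The diet groups were compared with limma on the deposited log2 values, with 1 mean per group over 29 libraries. Benjamini-Hochberg adjustment was over all 19387 genes. Fits without the 8 libraries, or with Glycam1 or the B cell list as a covariate, rest on a split made from the data. Calls from those fits are given below as descriptions only. The first question was whether a gene differed among the 6 groups at all. It did for 2 of the 9 members, Ighg1 (adjusted p = 0.0188) and Ighg2b (adjusted p = 0.0354), while 33.3% of all genes passed the same limma test. The share of members called was thus below that of all genes. Ighg3, with adjusted p = 0.0814 by limma, came next.

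Ighg2b was highest in Control. Its normalized counts were 12132, 44282, 25268, 4487 and 30022 in Control 1 to 5 and 1446, 3809, 3141, 3597 and 3537 in ICR 1 to 5. All Control libraries were above all ICR libraries. They were 7.76, 3228, 4871, 9405 and 24.3 in Obese 1 to 5 and 2.92, 1937, 1094, 2778 and 10229 in LFD 1 to 5. They were 233, 525, 14.9, 2458 and 4948 in LFCR 1 to 5 and 96.3, 1937, 52.8 and 12.1 in MCR 1 to 4. By median the order was Control (25268), ICR (3537), Obese (3228), LFD (1937), LFCR (525) and MCR (74.6), and every pair of neighbours after Control and ICR overlapped.

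Ighg1, an isotype that the cytokine interleukin-4 favours, was high in Control and ICR. Its normalized counts were 2090, 3588, 1823, 174 and 1041 in Control 1 to 5 and 1616, 643, 4271, 652 and 3276 in ICR 1 to 5. The 2 groups overlapped, with Control 4 far below the other Control libraries. The counts were 2.82, 381, 398, 649 and 4.70 in Obese 1 to 5 and 0, 277, 343, 333 and 327 in LFD 1 to 5. They were 6.69, 172, 4.97, 1098 and 256 in LFCR 1 to 5 and 16.2, 551, 9.32 and 3.79 in MCR 1 to 4. Among the Obese, LFD, LFCR and MCR libraries, only Obese 4 and LFCR 4 exceeded the lowest ICR value of 643.

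As a share of heavy chain counts, Ighg1 was highest in 3 ICR libraries. It made up 5.88% in ICR 1 (95% Wilson interval 5.63% to 6.15%), 9.23% in ICR 3 (8.96% to 9.51%) and 6.72% in ICR 5 (6.54% to 6.91%). ICR 2 and ICR 4 had 1.32% and 1.37%. No library of another group exceeded 2.47%, the share of LFCR 4, and Control ran from 0.451% to 2.14%. The ICR libraries thus divided into 3 above and 2 within the range of the other groups.

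Ighm varied less than the switched isotypes. Its normalized counts were 52659, 164860, 32922, 20662 and 36035 in Control 1 to 5, and 17961 to 30730 in ICR. They were 1622, 38719, 37012, 50532 and 4386 in Obese 1 to 5 and 2520, 28897, 26752, 18784 and 35071 in LFD 1 to 5. They were 7204, 10972, 3649, 21115 and 28634 in LFCR 1 to 5 and 7663, 33191, 5322 and 4144 in MCR 1 to 4. In each of Obese, LFD, LFCR and MCR the low values were those of the libraries with low Glycam1.

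Between Obese and Control, limma called 0 of 9 members, and 6 had an unadjusted p under 0.05. The share of all genes under that unadjusted threshold is not reported here or below, so such counts are not read as results. Of all genes, 12.9% were called at an adjusted p under 0.05, and voom on the recovered reads called 1 member, Ighg3, and 14.9% of all genes. The members' median difference was -3.13 on the log2 scale beside -0.03 over all genes, and 9 of 9 were lower in Obese. Ighg2b had the lowest adjusted p, with a difference of -4.63 ± 1.62 (SE) and adjusted p = 0.0587 by limma. The limma differences were -1.73 ± 0.85 for Ighm (adjusted p = 0.177) and -3.38 ± 1.47 for Igkc (adjusted p = 0.128). Without the 8 libraries with low Glycam1, the difference of Ighm was -0.15 ± 0.46 and that of Ighd was 0.23 ± 0.36, while those of Ighg2b and Ighg3 were -1.75 ± 0.77 and -1.70 ± 0.61. This fit called 0 members, beside 3.24% of all genes, and Ighg3 had the lowest adjusted p (0.138). With the mean of the B cell list as a covariate, Ighg2b was called (-2.28 ± 0.71, adjusted p = 0.0401, limma), beside 3.17% of all genes called lower.

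Between LFCR and Control, 3 of 9 members were called, and 3 of 3 were lower in LFCR, beside 38.1% of all genes called in either direction and 18% called lower. Ighg2b fell by 4.95 ± 1.62 on the log2 scale (limma, adjusted p = 0.0213), Ighg3 by 3.76 ± 1.40 (adjusted p = 0.0375) and Ighg1 by 3.23 ± 1.22 (adjusted p = 0.0396). Jchain (-3.13 ± 1.26, adjusted p = 0.0522) and Ighm (-2.05 ± 0.85, adjusted p = 0.0586) came next in the limma fit. Voom called 1 member, Ighg3, and 38% of all genes. Without the 8 libraries limma called 5 members, beside 11.1% of all genes called lower. They were Ighg2b (-3.24 ± 0.77, adjusted p = 0.0097), Ighg3 (-2.47 ± 0.61, 0.0107), Igkc (-1.76 ± 0.58, 0.0346), Jchain (-1.80 ± 0.63, 0.0456) and Ighm (-1.30 ± 0.46, 0.0461). This fit had 3 LFCR libraries. It left out libraries by a split made from the data, in which 4 of these 5 members and Ighm did not overlap, so the calls are descriptions. With the B cell covariate limma called Ighg2b alone (adjusted p = 0.0499), beside 8.98% of all genes called lower.

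Between MCR and Control, 8 of 9 members were called lower, beside 29.6% of all genes called and 15.7% called lower. The largest differences were those of Ighg2b, which fell by 6.83 ± 1.72 (limma, adjusted p = 0.0116), and Ighg2c, which fell by 6.57 ± 1.87 (adjusted p = 0.0175). Igkc fell by 5.01 ± 1.56, Ighd by 4.75 ± 1.63, Ighg1 by 4.32 ± 1.29, Ighg3 by 4.18 ± 1.48, Jchain by 4.01 ± 1.34 and Ighm by 2.41 ± 0.90, with adjusted p between 0.0210 and 0.0460 by limma. Igha, with -1.42 ± 1.19 (adjusted p = 0.366), was not called. Of the 4 MCR libraries, 3 have low Glycam1, and the MCR library with Glycam1 of 9 or more, MCR 2, had 33191 for Ighm and 20937 for Igkc. Of the 9 members, MCR 2 lay outside the range of Control for Ighg2b (1937), below every Control library, and for Ighg3 (5769), above every Control library. With the B cell list or Glycam1 as a covariate, limma called 0 of 9 members for MCR against Control, beside 0.645% and 0.299% of all genes, with an unadjusted p under 0.05 for 1 member (Ighg2b) in the first fit and 0 in the second. Without the 8 libraries limma called 0 members and 0% of all genes, with Ighg2b at an unadjusted p under 0.05. Group and the low-Glycam1 set cannot be told apart in MCR.

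**Figure D5:**
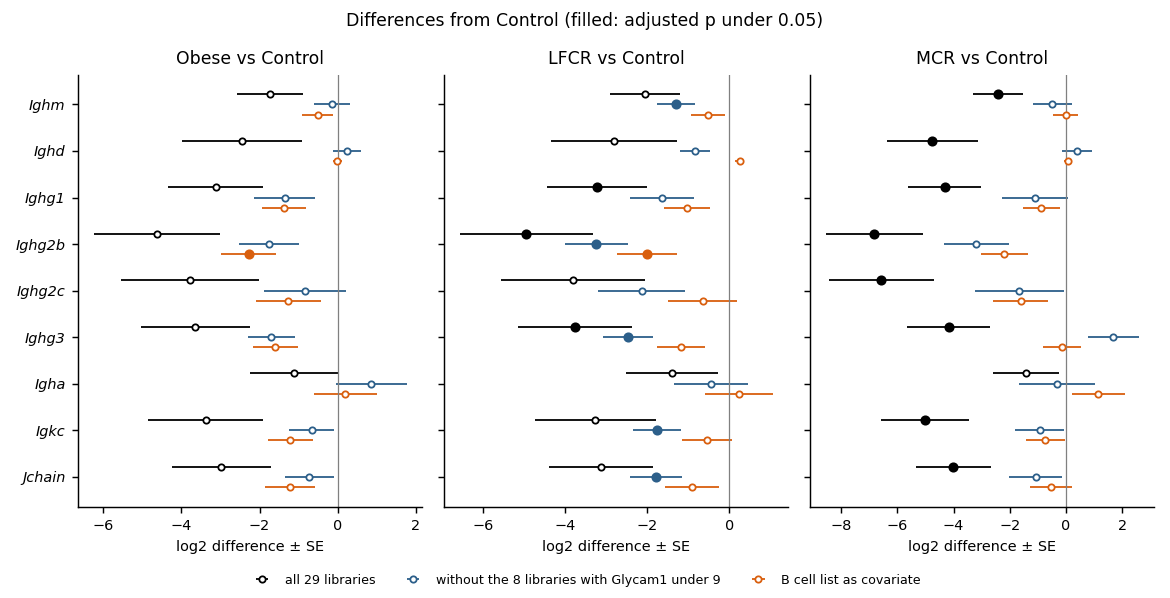
Differences of the 9 genes from Control on the log2 scale, with standard errors, for Obese, LFCR and MCR. Black points use all 29 libraries, blue points leave out the 8 with Glycam1 under 9, orange points use the mean of the B cell list as a covariate, and filled points have an adjusted p under 0.05. The 8 filled black points of MCR have no filled blue or orange counterpart, and Ighg2b is filled in all 3 fits for LFCR.

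These comparisons share the 5 Control libraries, so their values are not independent of each other. Among the Control libraries, Control 4 had the lowest Ighg1, Ighg2b, Ighg2c, Igkc and Jchain counts and Control 2 the highest. Leaving out Control 2 left 0 members called for LFCR and 1 for MCR. Leaving out LFCR 1 or LFCR 3 left 0 for LFCR, and leaving out MCR 3 left 0 for MCR. With lane as a term in the fit, limma called 3 members for LFCR and 7 for MCR against Control. The shares of all genes called in the fits of this paragraph are not reported here, so the counts are not read as results.

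Between ICR and Obese, limma called 0 of 9 members and 1 had an unadjusted p under 0.05. Of all genes 9.21% were called, and voom also called 0 members. That member was Ighg1, with a difference of 3.49 ± 1.22 and adjusted p = 0.0719. With the mean of the B cell list as a covariate, 3 members were called higher, beside 20.4% of all genes called and 9.11% called higher. Ighg1 rose by 2.53 ± 0.54 (limma, adjusted p = 0.0020), Ighg3 by 1.59 ± 0.56 (adjusted p = 0.0431) and Ighd by 0.32 ± 0.11 (adjusted p = 0.0346). With Glycam1 as the covariate the limma difference of Ighg1 was 2.11 ± 0.58 (adjusted p = 0.0117). Ighg1 was the 1 member called in that fit, beside 9.5% of all genes called higher. Without the 8 libraries the limma difference of Ighg1 was 1.71 ± 0.78 (adjusted p = 0.140), with 3 Obese libraries left. Both covariates divide the libraries as the 2 sets made from the data do, so these calls are descriptions.

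Between ICR and Control, limma called 0 of 9 members, with 0 at an unadjusted p under 0.05 and 0 by voom, beside 4.58% of all genes. All 10 libraries of these groups have Glycam1 of 9 or more. Ighg2b differed by -2.59 ± 1.62 (adjusted p = 0.310) in the limma fit over 29 libraries, whose spread includes the 8. Without those 8 the difference was the same and its standard error was 0.67, with adjusted p = 0.0128 by limma. Ighg2b was the 1 member called in that fit, beside 24.3% of all genes. The 8 held the lowest Ighg2b counts, so leaving them out narrowed the spread by construction, and the call is a description.

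In the other comparisons limma called 0 of 9 members. For LFD against Obese 5.98% of all genes were called, for LFCR against Obese 21.4%, for MCR against Obese 12.4%, and for the mean of LFCR, MCR and ICR against LFD 3.33%. For LFD against Control, 0% of all genes were called. Unadjusted p-values under 0.05 were found for 2 members for LFD against Control and for 0 in the other 4, and voom called 0 in all 5. The 0% is at the adjusted threshold, unlike the 2. The members' median differences were 0.70, -0.15, -1.19, -0.78 and -2.11 on the log2 scale, in the order in which the comparisons are named.

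Igha, the mucosal isotype, was not called over the 6 groups (limma, adjusted p = 0.703), which does not show that its level was equal among them. Its medians by group ran from 71.3 in LFCR to 508 in LFD. Within Obese it ran from 4.94 to 2529, and within LFD from 23.4 to 1995. In both groups the libraries with the lowest counts have low Glycam1.

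Other genes of antibody production were counted from lists chosen for this tissue, and the counts stand beside the shares of all genes called lower, 15.7% for MCR and 18% for LFCR against Control. For MCR against Control, 13 of 13 B cell genes were called lower, among them Bank1 by 3.55 (limma, adjusted p = 0.0268) and Cd22 by 4.83 (adjusted p = 0.0282). Of 13 plasma cell genes 8 were called lower, led by Creld2 with 0.71 (limma, adjusted p = 0.0052) and Derl3 with 1.87 (adjusted p = 0.0067). Both are genes of the endoplasmic reticulum. Of the 6 other constant genes that could be tested, Iglc1, Iglc2 and Iglc3 of the lambda light chain were called lower, by 3.17, 3.92 and 3.93. In the germinal centre list, Bcl6 fell by 0.78 and Gcsam by 1.71. For LFCR against Control, 9 of 13 plasma cell genes were called lower, with Creld2 at -0.64, Prdm1, the master regulator of plasma cells, at -1.07 and Derl3 at -1.63. Of the B cell genes, 0 of 13 passed the limma test, which does not show that they held their level. They summed to 35059 to 90141 (median 55284) in Control and to 636 to 36964 (median 25175) in LFCR. The plasma cell list summed to 19795 to 31101 (median 20598) in Control and to 16291 to 19540 (median 17522) in LFCR. Derl3 followed Ighm within the 21 libraries (r = 0.890, rho = 0.735, r = 0.707 without the 2 farthest), but not within the 8 (r = -0.695, rho = -0.595, and -0.180 without the 2 farthest). Red blood cell genes moved as well: 5 of 5 rose against Control in Obese, in LFCR and in MCR, beside 12.9%, 38.1% and 29.6% of all genes called in either direction. The part of blood in these differences was not tested.

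Counts of genes that attract plasma cells or bind and carry antibodies stand beside 12.9% of all genes called for Obese against Control and 9.21% for ICR against Obese, and 1 of 10 is near those shares. For Obese against Control, Ccr10, a receptor that guides IgA plasma cells, fell by 0.88 (limma, adjusted p = 0.0050), and Ccl25, a chemokine of the gut and thymus, fell by 0.40 (adjusted p = 0.0038). Both rose in ICR against Obese, Ccr10 by 0.68 (adjusted p = 0.0278) and Ccl25 by 0.41 (adjusted p = 0.0031). They were 2 of 9 genes of the attraction and survival list in each comparison. Fcgrt, the neonatal Fc receptor that carries IgG, rose in Obese by 0.62 (adjusted p = 0.0489), the 1 of 10 transport and Fc receptor genes called. For ICR against Obese the 1 called was Fcgr1, a high-affinity IgG receptor of macrophages, which fell by 0.86 (limma, adjusted p = 0.0280). In the same comparison 3 of 6 macrophage genes, Adgre1, Itgam and Cd68, were called lower. In the germinal centre list, Ung, a DNA repair enzyme that removes uracil, rose by 0.67 in ICR against Obese (adjusted p = 0.0335). Of 13 plasma cell genes, Sdc1 and Fkbp11 were called lower, by 0.79 and 0.73.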

How the data were processed

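RNA of 29 mouse mammary fat pads was extracted with TRIzol and sequenced as stranded total RNA in paired reads of 76 bases, per the labels' protocols. TopHat2 2.0.7, HTSeq 0.5.3p9, DESeq2 (version not given) and mm10 are named, with no order, per the submitters' processing notes. The deposited values are log2 expression on a variance-stabilized scale, as inferred from the values: inverting the transform gave normalized counts, and multiplying by each library's size factor gave whole reads within 0.01.

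The main test was limma 3.58.1 (R 4.3.3, statmod 1.5.0) on the deposited log2 values, with 1 mean per group, a mean-dependent and robust prior, a filter of 10 normalized counts in at least 4 libraries, and Benjamini-Hochberg adjustment over 19387 genes at 0.05. The test was checked on simulated independent normal values with capped spreads. These did not hold the split between the 2 sets of libraries, so the check does not cover genes that vary like the members. The fit gave an overall test and 10 contrasts. Voom on recovered reads, other filters, covariates, a lane term, array weights, quantile normalization and omission of libraries were alternatives.

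The members and lists were chosen with earlier results of these data known. Named are all members, Glycam1, 3 genes most correlated with Ighm, Igha and Jchain, list genes with the smallest adjusted p (up to 4) or highest mean (2), and 2 heavy V genes per set. Others are named where a count of 5 or fewer needed it or were picked after their values were seen. Gene models are GENCODE vM21. Shares have Wilson intervals at 95%. Values of some single list genes are not reported here.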

Additional observations from a re-analysis of the deposited data

Results flagged for a closer look

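In 54 tests of a diet group's lowest or highest library, 11 gave a value far from the rest of its group by Dixon's criterion, which chance alone meets in about 1 of 20 groups. The 9 genes vary together, so these are not independent.

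Of the 11, 7 were low log2 values in LFD 1, the LFD library with low Glycam1: 11.31 for Ighm, 7.25 for Ighd, 3.75 for Ighg1 (no read), 4.68 for Ighg2c, 4.42 for Ighg3, 8.83 for Igkc and 6.94 for Jchain. High log2 values in MCR 2, the MCR library with Glycam1 of 9 or more, were 14.03 for Ighd, 9.17 for Ighg1 and 12.5 for Ighg3. In ICR 1 the log2 value of Ighg2b, 10.52, was the lowest of its group.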

How the results depend on the processing

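Limma called 2 members over the 6 groups, and 8 with array weights, 6 with a luminal covariate and 1 each with the B cell covariate, the Glycam1 covariate, no filter or voom. For Obese against Control, 0 became 1 with the B cell covariate or voom and 4 with the luminal covariate. For LFCR against Control, 3 became 7 (luminal covariate), 6 (only the groups compared), 5 (quantile normalization, or without the 8 libraries), 1 (B cell covariate, no filter or voom) and 0 (Glycam1 covariate). For MCR against Control, 8 became 4 without a filter and 0 with the B cell or Glycam1 covariate, with only the groups compared, or without the 8 libraries, where the lone MCR library is assumed to vary like the other groups. For ICR against Obese, 0 became 3 (B cell covariate) and 1 (Glycam1 covariate), and for ICR against Control 1 with only the groups compared or without the 8. With array weights, MCR against Obese had 8 and the mean of LFCR, MCR and ICR against LFD had 1. The shares of all genes called are not reported here for array weights, the luminal covariate, quantile normalization, no filter or only the groups compared. Counts from those fits are therefore not read as results about the members. The causes were not tested.

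Without 1 library, counts ran from 1 to 7 over the 6 groups (7 without MCR 2; 1 without Control 1, 2, 3 or 5 or MCR 1, 3 or 4), 0 to 3 for Obese against Control (3 without Obese 4, 2 without MCR 2, 1 without Control 4, LFD 1 or Obese 3), 0 to 1 for ICR against Obese (1 without LFD 1 or Obese 4), 0 to 5 for LFCR against Control (0 without Control 2, LFCR 1 or LFCR 3; 1 without Control 1 or 5; 5 without LFCR 4, LFCR 5, LFD 1, MCR 2 or Obese 1) and 0 to 8 for MCR against Control (0 without MCR 3; 1 without Control 2, MCR 1 or MCR 4; 2 without Control 1). In the other comparisons they were 0 throughout. The shares of all genes called without 1 library are not reported here, so these counts are not read as results about the members.

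Differences from Control that turned positive were, for Obese, Igha at 0.86 (without the 8), 0.56 (Glycam1 covariate), 0.19 (B cell covariate) and 0.47 (array weights) and Ighd at 0.23 (without the 8) and 0.67 (Glycam1 covariate). For LFCR they were Igha at 0.29 and Ighd at 0.35 (Glycam1 covariate), and 0.23 and 0.25 (B cell covariate). For MCR they were Igha at 1.41 and 1.15 and Ighd at 0.52 and 0.059 (Glycam1 and B cell covariates), Ighd at 0.39 and Ighg3 at 1.68 (without the 8), and Ighg3 at 0.34 and Ighm at 0.25 (Glycam1 covariate). Of the other values for single genes with all libraries, without the 8 or with only the groups compared, 244 kept direction and call, 24 gained and 44 lost the call. Leaving Ighd out of the isotype total raised the median Ighm share to 97.6% in the 8 and 68.7% in the 21.

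Libraries were not paired by replicate, because the labels carry no replicate numbers shared between groups. The lanes in the column headers hold at most 1 library of a group each. With lane as a term limma called 7 members for MCR and 3 for LFCR against Control. It called 2 over the 6 groups and 0 in the other comparisons. The shares of all genes called with the lane term are not reported here, so these counts are not read as results. Ighg1, Ighg3 and V gene shares rest on few reads in the 8 libraries. The Igha share among switched isotypes, the lymph node list without Glycam1 and Cr2, and the Ighv1-81 mean without MCR 1 were added after seeing the data.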
